A study of Homo sapiens with 6 samples.

Results

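The cytochrome P450, UDP-glucuronosyltransferase (UGT) and cytosolic sulfotransferase (SULT) genes were taken by their platform symbols, as CYP, UGT1, UGT2, SULT1, SULT2 and SULT4 names, leaving out the sterol synthesis enzyme CYP51A1. This gave 67 probe sets for 66 genes among 21448 probe sets tested. Of the 67 probe sets 51 were P450s, counting the pseudogene CYP21A1P, 7 were UGT2B genes and 9 were sulfotransferases. UGT1 genes were not analysed here. RNA came from T24, an established human bladder carcinoma line, grown in medium with 10% serum and kept serum-free for 12 h. The cells then received vehicle or oxidized low-density lipoprotein (ox-LDL) at 20 µg/mL for 24 h, with 3 arrays in each group; apart from the siRNA wording described below, the labels name no other agent or genetic change in either. The labels do not say that the arrays of a group hold separate cultures, and a p-value here rests on the spread among these 6 samples, which may be technical.

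P450s are haem enzymes that add oxygen to lipids, steroids, vitamins and foreign compounds, and take their electrons from partner proteins. UGTs then attach glucuronic acid and SULTs attach sulfate, which makes the products easier to excrete. A few P450s make or remove oxysterols, the oxidized forms of cholesterol that ox-LDL carries, and start their conversion to bile acids in the liver. Most of these genes are best known from liver, gut or steroid-making glands, and bladder epithelium is known for a smaller set.

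A description field of the labels speaks of siRNA against the methyltransferase G9a, whereas titles, sources and treatment fields speak of vehicle and ox-LDL, and the groups follow the latter. EHMT2, which encodes G9a, had log2 values of 8.00, 7.91 and 7.63 in vehicle and 8.34, 8.26 and 8.06 with ox-LDL. The groups did not overlap and the ox-LDL arrays were the higher ones, with a difference of 0.37 (SE 0.12) that did not pass (limma unadjusted p = 0.0210, adjusted p = 0.125). Whether any array holds siRNA-treated cells cannot be told from these values. The array of vehicle replicate 3 stood apart, with correlations of 0.979 to 0.988 with the other arrays, against 0.992 to 0.997 among those. Its background rows with at least 20 G or C bases had a mean log2 value of 7.82, against 7.27 to 7.37 on the other 5 arrays. Of 16 measured urothelial and epithelial markers, 13 lay above the negative controls, among them KRT8 (12.10 in vehicle), while CDH1 (3.96), which encodes E-cadherin, UPK1B (4.44) and UPK3A (4.57) did not. Of 7 measured hepatocyte markers, 5 lay above that level in at least 1 group, with vehicle means of 8.98 for SERPINA1, 7.61 for APOA1, 6.03 for FGB, 5.86 for TTR and 5.24 for TF. ALB, which encodes albumin, lay below it at 5.14 in vehicle and 5.08 with ox-LDL, as did APOB. None of the 7 passed in limma (1 had an unadjusted p under 0.05, as did 26.1% of all probe sets). Their part in the levels of liver-type P450s was not tested. In such bulk RNA, fewer cells with a transcript and less transcript per cell cannot be told apart.

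With ox-LDL, CYP24A1, the enzyme that inactivates vitamin D hormone, and UGT2B7, which glucuronidates steroids, bile acids and many drugs, rose, each by less than 2-fold. CYP4F11, a fatty acid hydroxylase, and CYP2A13, an enzyme of the airway that activates tobacco nitrosamines, fell slightly. The other 63 probe sets did not pass, among them every one of the 8 P450s linked to oxysterols and bile acids and all 9 sulfotransferases. The share that passed, 5.97% (4 of 67), was close to that of all probe sets tested, of which 6.77% passed (limma, Benjamini-Hochberg adjusted p under 0.05 over 21448). By direction, 2 were higher, against 3.48% of all probe sets, and 2 were lower, against 3.29%. An unadjusted p under 0.05 in limma was reached by 13 of the 67, a smaller share than the 26.1% (5598) of all probe sets. Of those 13 differences 10 were negative, compared with 2713 of the 5598. The arrays of the groups did not overlap for 20 of the 67, that is 29.9%, against 36.8% of all. Of these, 5 were higher with ox-LDL, against 19.1% of all probe sets, and 15 were lower, against 17.7%. All 4 calls were kept without vehicle replicate 3, a setting in which 12.4% of all probe sets passed. Without any 1 ox-LDL array, only 1.42% to 1.56% of all probe sets passed. A call lost in that way, as given below for single genes, was therefore common across the array.

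Most of these transcripts were dim. A probe set is here called above the negative controls when the mean of at least 1 group exceeded a log2 value of 5.21, the 95th percentile of 612 negative control rows. By this measure 35 of the 67 (52.2%) lay above, compared with 78.6% of all probe sets tested. Of the P450s 31 of 51 did, of the sulfotransferases 3 of 9 (SULT1A1, SULT2B1 and SULT4A1), and of the UGT2B genes UGT2B7 alone of 7. At the 99th percentile, a log2 value of 6.10, 17 probe sets remained above. Against the mean of the background rows richest in G and C, 7.41, 9 remained (13.4%), compared with 47.8% of all probe sets tested. These were CYP20A1, CYP26B1, CYP2U1, CYP4V2, CYP2W1, CYP11B1, CYP27B1, 1 of the 2 CYP2D6 probe sets and SULT4A1. The level of 7.41 was above the median of every array (7.11 to 7.18), and the high background of vehicle replicate 3 enters it. A value above the negative controls is taken as a weak sign of a transcript, because many markers of other cell types also lay above them. These were 3 of the 4 endothelial, 5 of the 7 hepatocyte, 4 of the 5 fibroblast and 4 of the 7 macrophage and leukocyte markers. All 5 steroid cell markers, CYP11A1 and CYP17A1 among them, did so too. Whether T24 cells transcribe any of these markers was not tested. None of the 4 genes that passed had a group mean above 7.41, and the base content of their probes was not used here.

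**Figure D1:**
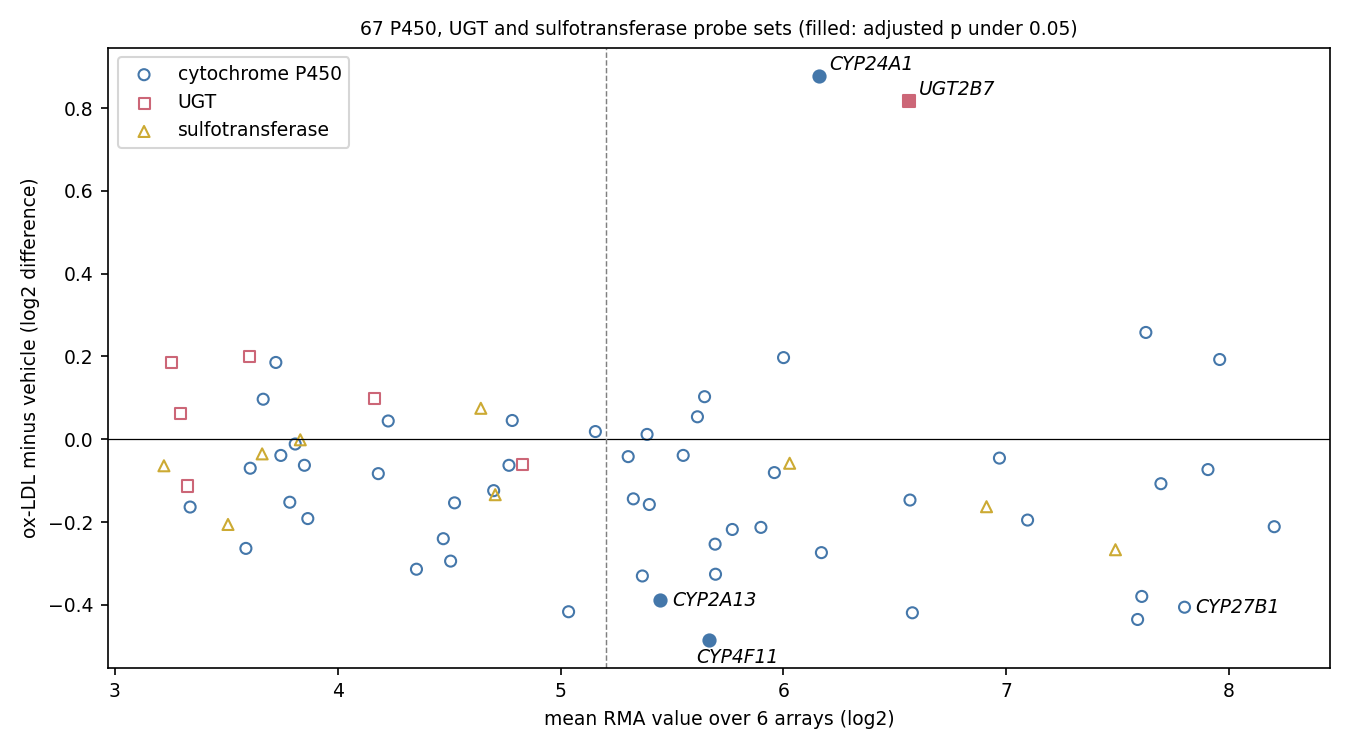
Each point is 1 of the 67 probe sets, with its mean RMA value over 6 arrays (log2) on the horizontal axis and the log2 difference of ox-LDL minus vehicle on the vertical axis; filled points passed at an adjusted p under 0.05, and the dashed line is the 95th percentile of the negative controls. CYP24A1 (0.88) and UGT2B7 (0.82) stand above all other points, which lie between -0.48 and 0.26.

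The balance of the differences leaned to the negative side. Of the 67 differences 49 were negative, as were 11818 of all 21448, and their median was -0.08, compared with -0.03 over all probe sets tested. The array of vehicle replicate 3 was the highest of the 6 for 37 of the 67 (55.2%), compared with 36.4% of all probe sets, and for 33 of the 51 P450s. Without it, the median of the 67 was -0.07 and that of all probe sets -0.01. With equal array medians, a second quantile normalization or cyclic loess, the median of the 67 was -0.05, -0.05 and -0.04. Over all probe sets it was 0.001, -0.01 and -0.003 in these settings. The 67 were also dimmer, with a median log2 level of 5.30 against 7.13, and the part of level in this lean was not tested. The part of vehicle replicate 3 in the individual negative differences was not tested beyond the values without it, which are given beside the genes concerned.

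**Figure D2:**
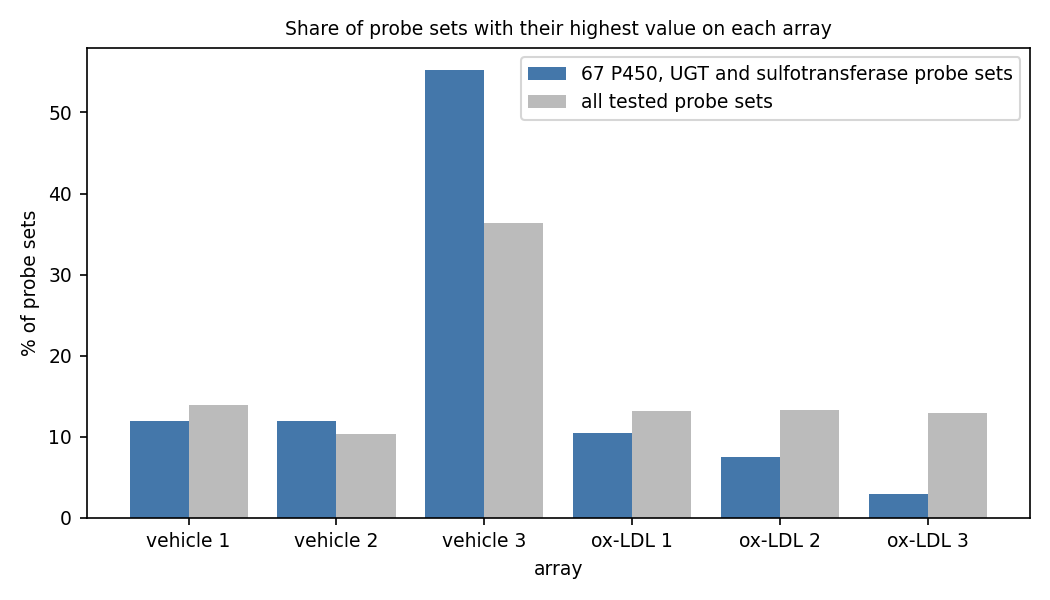
Bars give, for each array on the horizontal axis, the percentage of probe sets whose highest value of the 6 lay on that array, for the 67 P450, UGT and sulfotransferase probe sets and for all 21448 tested. Vehicle replicate 3 held the highest value for 55.2% of the former and 36.4% of the latter, and ox-LDL replicate 3 for 2.99% and 12.9%.

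Vitamin D is activated by CYP2R1, the main 25-hydroxylase, and CYP27B1, which makes the hormone calcitriol, and is removed by CYP24A1. Through the vitamin D receptor VDR, calcitriol itself switches on CYP24A1, a textbook feedback loop. The log2 level of CYP24A1 was 5.71, 5.82 and 5.64 in vehicle and 6.67, 6.55 and 6.57 with ox-LDL. All 3 ox-LDL arrays lay above all 3 vehicle arrays, and the groups differed by far more than the spread within either. Its mean went from 5.72 ± 0.09 to 6.60 ± 0.06 (SD, n = 3 each), so that it rose 1.84-fold, with a log2 difference of 0.88 (SE 0.08, limma adjusted p = 0.00255). By size it took place 78 among the 746 probe sets that were higher across the array. It alone of the 67 met the selection the series states (an unadjusted p no higher than 0.001 and 1.5-fold or more, applied here to the limma fit), which 2.31% of all probe sets met. Its call was kept under all 13 alternative settings, with adjusted p-values from 0.00045 to 0.0258.

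CYP27B1 pointed the other way without passing. Its values were 7.80, 8.18 and 8.03 in vehicle and 7.66, 7.61 and 7.52 with ox-LDL, so that the groups did not overlap but vehicle replicate 1 lay close to the ox-LDL arrays. The log2 difference was -0.41 (SE 0.11, 95% confidence interval -0.67 to -0.15, limma adjusted p = 0.0763). Without vehicle replicate 1 it passed (-0.51, adjusted p = 0.0489), whereas without vehicle replicate 3 it did not (-0.39, adjusted p = 0.0915). It also passed with array quality weights (-0.48, adjusted p = 0.0178) and with an intensity trend and a robust fit (adjusted p = 0.0488). There 18.5% and 12.4% of all probe sets passed, against 6.77% in the main fit. CYP27B1 passed in 3 of 13 alternative settings and did not pass in the other 10, with limma adjusted p-values up to 0.233. CYP2R1 lay below the negative controls on every array, with values of 4.64, 5.11 and 4.53 in vehicle and 4.79, 4.80 and 4.83 with ox-LDL. Its groups overlapped, and its log2 difference was 0.05 (95% confidence interval -0.31 to 0.40), with a sign that turned without vehicle replicate 1 or 3. VDR, the receptor, had a mean of 8.17 in vehicle and 8.27 with ox-LDL and did not pass (log2 difference 0.10, SE 0.08, limma adjusted p = 0.426).

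**Figure D3:**
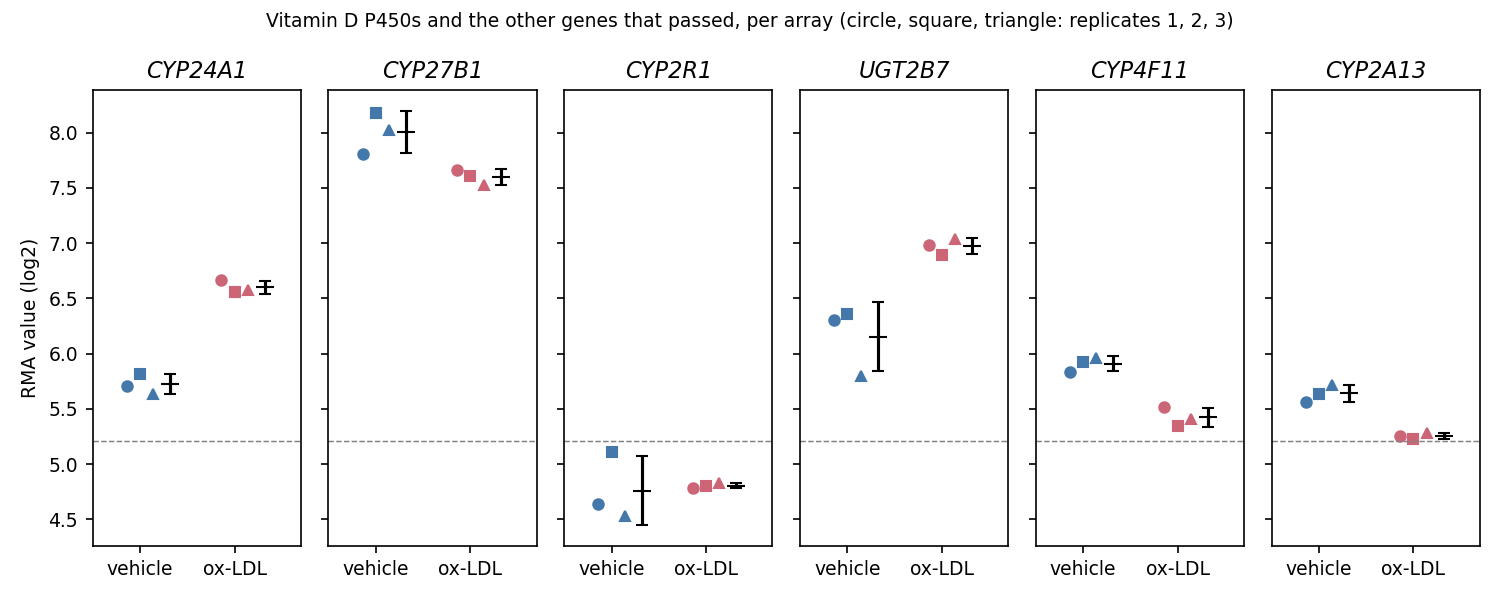
RMA values (log2, vertical axis) of CYP24A1, CYP27B1, CYP2R1, UGT2B7, CYP4F11 and CYP2A13 on each vehicle and ox-LDL array, with circles, squares and triangles for replicates 1, 2 and 3, black bars for the mean ± SD of 3 arrays, and a dashed line for the 95th percentile of the negative controls. CYP24A1 and UGT2B7 lie higher on all 3 ox-LDL arrays, CYP4F11 and CYP2A13 lower, and CYP2R1 lies below the line throughout.

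The oxysterol- and bile-acid-linked P450s gave no call in either direction. Of the 8 measured, none passed in limma and none had an unadjusted p under 0.05, and their median difference was -0.10 with or without vehicle replicate 3. In 3 of them, CYP7B1, CYP46A1 and CYP11A1, a group mean lay above the negative controls. CYP7B1, which 7-hydroxylates 25- and 27-hydroxycholesterol and so removes them, had values of 5.61, 5.52 and 5.58 in vehicle and 5.56, 5.63 and 5.40 with ox-LDL. The 2 groups overlapped fully, and the interval of the difference ran from -0.24 to 0.16 (log2 difference -0.04, SE 0.08). A change of CYP7B1 as large as that of CYP24A1 lies outside this interval.

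CYP27A1, the mitochondrial sterol 27-hydroxylase, was below the negative controls on every array, at 3.92, 3.51 and 3.73 in vehicle and 3.50, 3.39 and 3.47 with ox-LDL. Its groups did not overlap, though the lowest vehicle value was next to the highest ox-LDL value, and the difference of -0.26 (95% confidence interval -0.53 to 0.01) did not pass (limma adjusted p = 0.199). CYP46A1, the cholesterol 24-hydroxylase of neurons, spread widely in vehicle, at 5.21, 5.53 and 6.05, and stood at 5.74, 5.69 and 5.66 with ox-LDL. Its difference was 0.10 (95% confidence interval -0.36 to 0.57), 0.33 without vehicle replicate 3 and -0.09 without vehicle replicate 1, none of which passed. CYP39A1, the 7-hydroxylase of 24-hydroxycholesterol, had means of 3.86 ± 0.06 and 3.71 ± 0.08 (SD, n = 3 each), below the negative controls. CYP7A1, the rate-limiting enzyme of hepatic bile acid synthesis, and CYP8B1, its sterol 12-hydroxylase, also lay below them, with differences of -0.04 and 0.02 whose signs turned in other settings. CYP11A1, which cleaves the cholesterol side chain to start steroid synthesis, had a difference of -0.22 (SE 0.15), or -0.10 without vehicle replicate 3. CYP3A4, a hepatic P450 that also makes 4-hydroxycholesterol, was at 3.42 ± 0.07 in vehicle and 3.26 ± 0.03 with ox-LDL (SD, n = 3 each; log2 difference -0.16, limma adjusted p = 0.208).

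**Figure D4:**
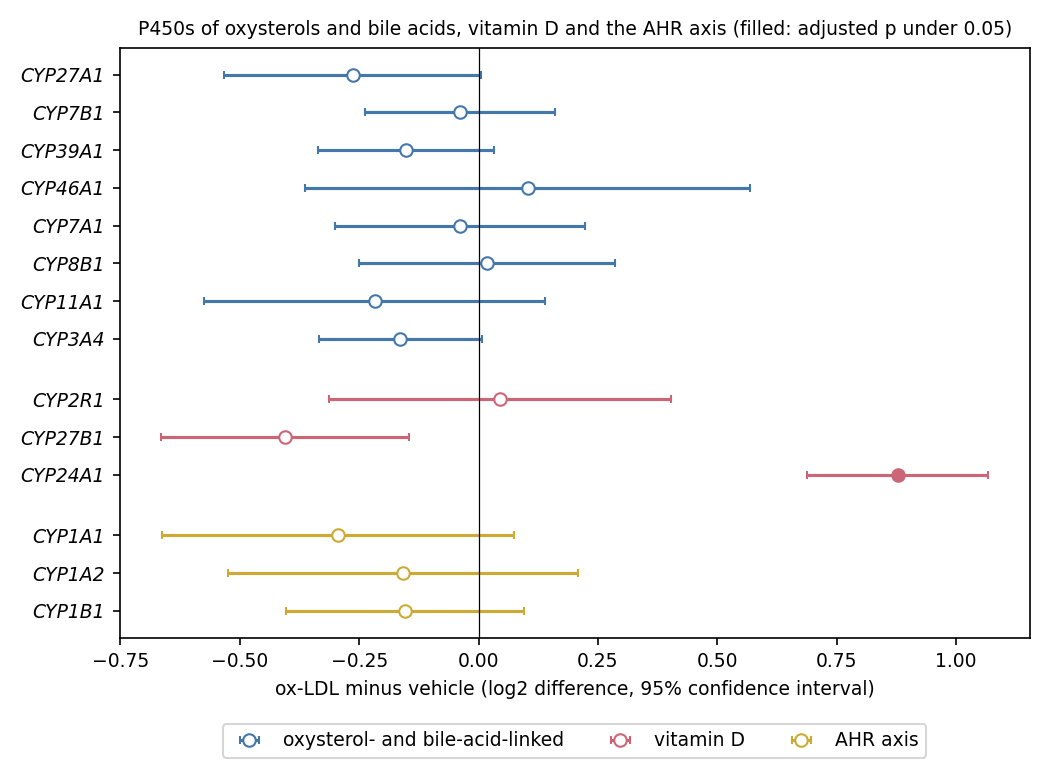
Points give the log2 difference of ox-LDL minus vehicle on the horizontal axis, with 95% confidence intervals from limma over 3 arrays a group, for 8 oxysterol- and bile-acid-linked P450s, 3 vitamin D P450s and 3 P450s induced through the aryl hydrocarbon receptor; the filled point passed. CYP24A1 alone passed, at 0.88, and the interval of CYP27B1 lies below 0 although its adjusted p did not pass.

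Other genes that handle oxysterols, bile acids, cholesterol or steroids were measured beside them, among them BAAT, AKR1D1, STS and STAR. Of 14 such genes, OSBPL1A rose and OSBP fell, and 12 did not pass. Over all probe sets tested, 6.77% passed. OSBP, a carrier that exchanges cholesterol and phosphoinositide between membranes and binds 25-hydroxycholesterol, fell from 9.05 ± 0.04 to 8.56 ± 0.03 (SD, n = 3 each; log2 difference -0.49, SE 0.07, limma adjusted p = 0.0104). Its values were 9.08, 9.06 and 9.01 in vehicle and 8.53, 8.60 and 8.55 with ox-LDL, a clear gap, and leaving out ox-LDL replicate 1, 2 or 3 ended the call (adjusted p = 0.0706, 0.0622 and 0.0695). OSBPL1A, a related lipid-binding protein of endosomes, rose by 0.42 (SE 0.07, adjusted p = 0.0199), which did not pass without vehicle replicate 2 (adjusted p = 0.0658) or any 1 ox-LDL array (0.0972 to 0.110). CH25H, the cholesterol 25-hydroxylase, which is not a P450, lay below the negative controls at 4.65 ± 0.13 and 4.54 ± 0.03 (SD, n = 3 each). NR1H3, which encodes the oxysterol receptor LXR alpha, had a difference of -0.29 (SE 0.14, limma adjusted p = 0.246), and -0.14 without vehicle replicate 3.

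Members of the CYP1 family are switched on by the aryl hydrocarbon receptor AHR when it binds planar compounds, and none of the 3 passed in limma or had an unadjusted p under 0.05. CYP1A1 had values of 4.33, 4.66 and 4.96 in vehicle and 4.38, 4.29 and 4.42 with ox-LDL, all below the negative controls and with overlapping groups. Its difference was -0.29 (95% confidence interval -0.66 to 0.07), and -0.14 without vehicle replicate 3. CYP1B1, which also oxidizes estrogens, lay below them too, at 4.60 ± 0.15 and 4.45 ± 0.12 (SD, n = 3 each; log2 difference -0.15, SE 0.11). CYP1A2 had a difference of -0.16 (SE 0.15), which was 0.01 without vehicle replicate 3. AHR itself was far above the negative controls at 10.23 ± 0.07 and 10.28 ± 0.02 (SD, n = 3 each), with a difference of 0.05 (SE 0.07) whose sign turned after cyclic loess. Of the 6 measured genes of this axis that are not P450s, NFE2L2, which encodes the antioxidant regulator NRF2, fell by 0.41 (SE 0.06, limma adjusted p = 0.0161) and 5 did not pass. The NFE2L2 call was lost without vehicle replicate 1 or 2 (adjusted p = 0.0511 and 0.0533) or any 1 ox-LDL array (0.0934 to 0.0946). TIPARP, another target of AHR, had a difference of 0.36 (SE 0.09, adjusted p = 0.0674).

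UGT2B7 was the one UGT that stood above the negative controls. Its values were 6.30, 6.36 and 5.80 in vehicle and 6.98, 6.89 and 7.04 with ox-LDL. All ox-LDL arrays were higher, and vehicle replicate 3 lay below the other vehicle arrays. The mean went from 6.15 ± 0.31 to 6.97 ± 0.07 (SD, n = 3 each), and it rose 1.76-fold, with a log2 difference of 0.82 (SE 0.15, limma adjusted p = 0.0284). Without vehicle replicate 3 the difference was 0.64 and passed (adjusted p = 0.00558), but it did not pass without vehicle replicate 1 (adjusted p = 0.0546) or without ox-LDL replicate 1, 2 or 3 (adjusted p = 0.119, 0.103 and 0.118).

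The other 6 UGT2B genes, which conjugate steroids, bile acids or drugs, were all below the negative controls, and none passed in limma or had an unadjusted p under 0.05. UGT2B17, which glucuronidates testosterone, had 3.53, 3.60 and 3.37 in vehicle and 3.76, 3.65 and 3.70 with ox-LDL. Its groups did not overlap and its difference was 0.20 (SE 0.09, limma adjusted p = 0.196). The differences of the remaining 5 lay between -0.11 for UGT2B15 and 0.19 for UGT2B28. UGT2B transcripts are close copies, so probe sets of this family can read each other's transcripts and the UGT2B7 value is uncertain to that extent. The 250 bases before the RefSeq start of UGT2B7 (chr4:69096224-69096473, GRCh38.p14, plus strand) are shown because UGT2B7 was the UGT that rose, and none of 6 motifs searched was in them.
UGT2B7: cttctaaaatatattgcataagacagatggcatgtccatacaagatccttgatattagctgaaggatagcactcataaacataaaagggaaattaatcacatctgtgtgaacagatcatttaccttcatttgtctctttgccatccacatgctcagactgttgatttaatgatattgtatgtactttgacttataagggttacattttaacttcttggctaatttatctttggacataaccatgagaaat

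The CYP4F enzymes hydroxylate the far end of long-chain fatty acids, leukotrienes and vitamin K, and CYP4F11 was the one of 6 that passed. CYP4F11 had values of 5.84, 5.92 and 5.96 in vehicle and 5.52, 5.34 and 5.41 with ox-LDL. Every ox-LDL array was lower than every vehicle array, and all 6 lay above the negative controls. It fell from 5.91 ± 0.07 to 5.42 ± 0.09 (SD, n = 3 each), by 1.40-fold (log2 difference -0.48, SE 0.08, limma adjusted p = 0.0182). The call was kept without vehicle replicate 1 or 3 and lost without vehicle replicate 2 (adjusted p = 0.0636) or ox-LDL replicate 1, 2 or 3 (adjusted p = 0.0622, 0.103 and 0.0954). CYP4F2, the vitamin K hydroxylase, had 5.86, 5.71 and 6.01 in vehicle and 5.44, 5.53 and 5.63 with ox-LDL, with no overlap and a difference of -0.33 that did not pass (SE 0.10, adjusted p = 0.104). The differences of CYP4F3, CYP4F8, CYP4F12 and CYP4F22 were 0.05, -0.33, -0.21 and -0.01, and none of these passed. Vehicle replicate 3 was the highest array for all 6 CYP4F genes, and without it their median difference went from -0.27 to -0.20. Probes of one relative can bind transcripts of another, so these 6 values cannot be counted as independent.

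The CYP2A genes form another group of close copies. Their probes too can bind transcripts of one another, so the 3 differences cannot be counted as independent. CYP2A13 had values of 5.56, 5.64 and 5.72 in vehicle and 5.25, 5.22 and 5.28 with ox-LDL. The ox-LDL arrays were all lower and sat just above the 5.21 level of the negative controls. It fell from 5.64 ± 0.08 to 5.25 ± 0.03 (SD, n = 3 each), by 1.31-fold (log2 difference -0.39, SE 0.07, limma adjusted p = 0.0290). This call was kept without vehicle replicate 3 (-0.35, adjusted p = 0.0198) and lost without any 1 other array (adjusted p 0.0501 to 0.141), after cyclic loess (-0.28, adjusted p = 0.0560) and with an intensity trend (adjusted p = 0.0652). CYP2A6, the hepatic nicotine oxidase, had 4.48, 4.55 and 4.74 in vehicle and 4.42, 4.34 and 4.30 with ox-LDL. CYP2A7, which is known to give no active enzyme, had 3.97, 3.98 and 3.93 in vehicle and 3.74, 3.75 and 3.81 with ox-LDL. Both were below the negative controls with groups that did not overlap, and their differences of -0.24 (SE 0.09) and -0.19 (SE 0.07) did not pass (limma adjusted p = 0.159 and 0.136).

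The likeness of the 3 CYP2A genes can be seen in the 250 bases before their RefSeq starts (GRCh38.p14), which are printed because all 3 differences were negative. They lie at chr19:41088201-41088450 on the plus strand for CYP2A13, and at chr19:40850448-40850697 and chr19:40882232-40882481 on the minus strand for CYP2A6 and CYP2A7. In the CYP2A13 line capitals mark the letters TATAAA, the core of a TATA box, and in the other lines they mark bases that were not identical to CYP2A13 in a global alignment.
CYP2A13: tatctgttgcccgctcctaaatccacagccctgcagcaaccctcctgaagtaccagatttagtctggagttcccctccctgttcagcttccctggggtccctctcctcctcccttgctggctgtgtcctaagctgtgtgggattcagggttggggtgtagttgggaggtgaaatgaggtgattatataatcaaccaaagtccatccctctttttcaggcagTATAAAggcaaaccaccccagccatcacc
CYP2A6: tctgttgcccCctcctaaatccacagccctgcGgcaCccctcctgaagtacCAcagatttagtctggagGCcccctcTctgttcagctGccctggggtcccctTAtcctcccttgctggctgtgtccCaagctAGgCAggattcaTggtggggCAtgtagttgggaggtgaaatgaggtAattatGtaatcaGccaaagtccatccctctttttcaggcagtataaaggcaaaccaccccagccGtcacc
CYP2A7: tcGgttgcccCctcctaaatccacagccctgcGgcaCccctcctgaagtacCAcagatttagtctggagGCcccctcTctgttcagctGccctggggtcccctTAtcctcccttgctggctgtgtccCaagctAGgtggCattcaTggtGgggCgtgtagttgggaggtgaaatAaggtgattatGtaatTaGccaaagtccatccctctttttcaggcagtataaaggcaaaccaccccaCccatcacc
CYP2A6 and CYP2A7 had 240 of 250 bases in common, and CYP2A13 shared 227 with CYP2A6 and 226 with CYP2A7. The letters TATAAA were in all 3 sequences and in 11.1% of all promoters of this length searched. Among the CYP4F genes with a sequence, by contrast, between 136 and 178 of 250 bases were identical in a pair. All these bases lie before the transcript start, so their likeness does not give that of the probe targets. The part of these sequences in the differences was not tested.

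**Figure D5:**
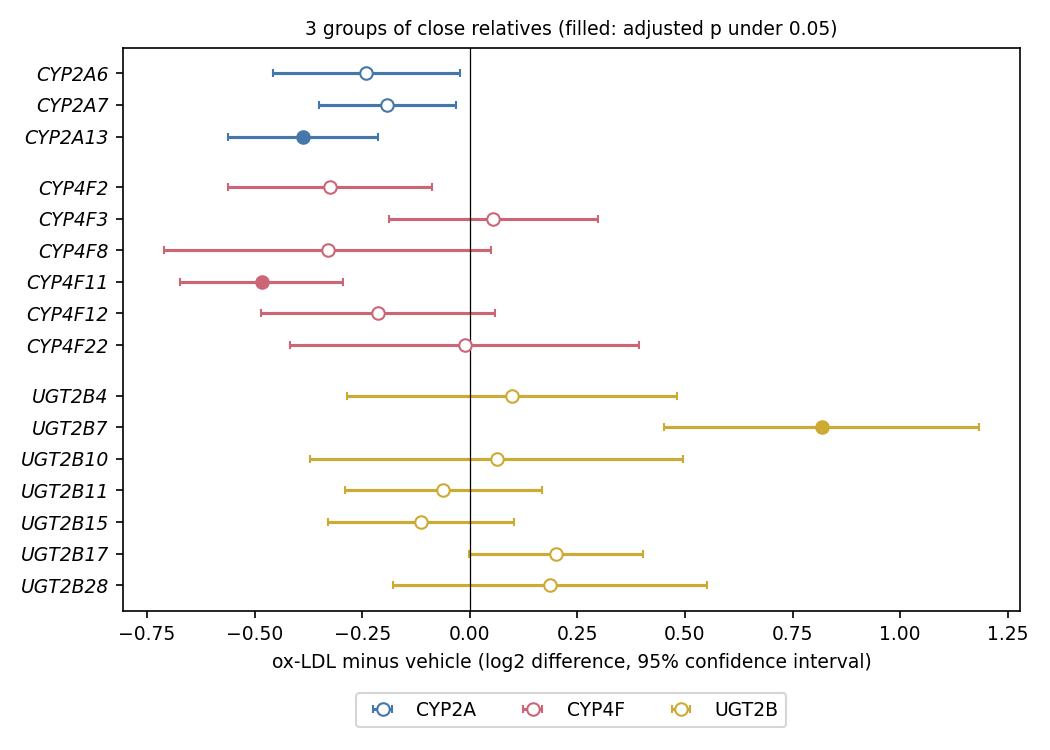
Points give the log2 difference of ox-LDL minus vehicle on the horizontal axis, with 95% confidence intervals from limma over 3 arrays a group, for 3 CYP2A, 6 CYP4F and 7 UGT2B genes; filled points passed. All 3 CYP2A points and 5 of the 6 CYP4F points lie below 0, and UGT2B7 stands at 0.82 while the other UGT2B points lie between -0.11 and 0.20.

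Steroid hormone P450s did not pass. None of the 5 measured did in limma, 1 had an unadjusted p under 0.05, and for all 5 the array of vehicle replicate 3 was the highest. CYP11B1, the last enzyme of cortisol synthesis, had 7.57, 7.67 and 8.16 in vehicle and 7.46, 7.36 and 7.45 with ox-LDL. Its groups did not overlap, and vehicle replicate 3 was well above the rest. The difference was -0.38 (SE 0.15, limma adjusted p = 0.177) with that array and -0.20 without it. CYP11B2, the near-identical aldosterone synthase, had a difference of -0.20 (SE 0.09), and CYP17A1 and the aromatase CYP19A1 had -0.14 and -0.06. The 3 retinoic acid hydroxylases did not pass either, with differences of -0.06 for CYP26A1, -0.11 for CYP26B1 and -0.08 for CYP26C1.

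Among the xenobiotic and fatty acid P450s, some of the larger differences were smaller without vehicle replicate 3. The 2 probe sets of CYP2D6, a hepatic drug oxidase with near-identical pseudogenes, had differences of -0.42 (SE 0.18) and -0.44 (SE 0.20), which were -0.21 and -0.19 without that array. CYP3A43 went from -0.42 (SE 0.18) to -0.22 in the same way, with values of 5.05, 5.04 and 5.64 in vehicle and 4.64, 4.94 and 4.91 with ox-LDL. CYP20A1, an orphan P450, had 7.97, 7.77 and 6.76 in vehicle and 7.80, 7.68 and 7.80 with ox-LDL, so its difference of 0.26 (SE 0.29) became -0.11 without vehicle replicate 3. CYP2J2, the epoxygenase that turns arachidonic acid into signalling lipids, had 5.85, 5.90 and 5.96 in vehicle and 6.22, 6.03 and 6.05 with ox-LDL, a difference of 0.20 (SE 0.08, limma adjusted p = 0.187) with no overlap. CYP4B1, a P450 known from lung and bladder that bioactivates aromatic amines, had a difference of -0.27 (SE 0.11, adjusted p = 0.184) with groups that overlapped. CYP2F1, a P450 of the airway, had one of -0.25 (SE 0.10, adjusted p = 0.174). None of these passed. The 37 probe sets not named by the rule had differences between -0.33 and 0.19, with a median of -0.06; the rule itself leaves out of them any with an unadjusted p under 0.05.

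No sulfotransferase changed by the test. None of the 9 passed in limma, 1 had an unadjusted p under 0.05, and 8 of the 9 differences were negative with a median of -0.06. SULT4A1, a brain-type member with no settled substrate, had 7.65, 7.52 and 7.71 in vehicle and 7.34, 7.33 and 7.40 with ox-LDL. Its groups did not overlap, and the difference of -0.27 (SE 0.08) did not pass (limma adjusted p = 0.0940). SULT2B1, which sulfates cholesterol and oxysterols, overlapped between groups, with 7.03, 6.69 and 7.25 in vehicle and 6.92, 6.65 and 6.93 with ox-LDL (log2 difference -0.16, 95% confidence interval -0.53 to 0.21). SULT1A1, the phenol sulfotransferase, had a difference of -0.06 (SE 0.10) and shares long stretches with other SULT1A genes, so its value is uncertain. SULT2A1, the bile acid and DHEA sulfotransferase of liver and adrenal, lay below the negative controls at 3.83 ± 0.32 and 3.83 ± 0.14 (SD, n = 3 each).

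Of the partners that feed these enzymes, 1 passed, where 6.77% of all probe sets tested did. Of 4 measured electron donors, FDX1, the ferredoxin that passes electrons to the mitochondrial P450s such as CYP24A1, CYP27A1 and CYP27B1, rose and 3 did not pass. FDX1 had 7.78, 7.67 and 7.39 in vehicle and 8.20, 8.09 and 8.11 with ox-LDL. Its groups did not overlap, with vehicle replicate 3 the lowest array, and it rose 1.44-fold (log2 difference 0.52, SE 0.11, limma adjusted p = 0.0417). Without vehicle replicate 3 it passed with a difference of 0.41, and it did not pass without vehicle replicate 2 (adjusted p = 0.0900) or any 1 ox-LDL array (0.140 to 0.163). None of 7 genes that supply the cofactors of conjugation passed in limma. Of these, 2 had an unadjusted p under 0.05, as did 26.1% of all probe sets. UGDH, which makes UDP-glucuronic acid for the UGTs, had a difference of -0.14 (SE 0.10, adjusted p = 0.378), and -0.24 without vehicle replicate 3, which passed (adjusted p = 0.0497). PAPSS2, which makes the sulfate donor for the SULTs, had one of -0.25 (SE 0.09, adjusted p = 0.128). None of the 4 measured nuclear receptors passed in limma or had an unadjusted p under 0.05.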

How the data were processed

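RNA of 3 vehicle and 3 ox-LDL samples was labelled from 500 ng each and read on 6 single-colour arrays. The authors deposited log2 values made with RMA, per the submitters' processing notes; no source used here gives its settings, build or annotation. RMA equalises arrays and pulls dim values together, which understates changes of dim genes. For arrays their number, not depth, limits precision.

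Of 24350 rows, 2902 controls were left out. All 21448 probe sets entered 1 limma fit (3.58.1, R 4.3.3) of ox-LDL minus vehicle, two-sided, with Benjamini-Hochberg adjustment. A fold is 2 to the power of the log2 difference. All 67 members were tested, also those not above the negative controls. Members and lists were chosen with earlier results of these data known. Members named with values were those with an unadjusted p under 0.05, the oxysterol-, vitamin D- and AHR-linked P450s, and the 5 largest differences in each direction; of partner genes, those that passed, and AHR, NR1H3, CH25H, UGDH and PAPSS2 (POR, AHRR, NR1I2 and NR1H2 were not analysed here). VDR, TIPARP, SULT1A1, SULT2B1, SULT2A1 and the other CYP4F, UGT2B, CYP11, CYP17, CYP19 and CYP26 genes were named after their values were seen. Upstream sequences are from RefSeq (GRCh38.p14) and were found for 46 of 66 genes. On simulated data of 21448 probe sets, 40% of 100 genes changed 1.5-fold and 72% of 100 changed 2-fold were recovered, with 1 false call. No other genes were changed there, and the noise was drawn independently for each value, without an array that stood apart. These figures therefore need not hold for the real arrays. Figures were drawn with matplotlib 3.10.9.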

Additional observations from a re-analysis of the deposited data

How the results depend on the processing

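Counts of genes that passed (2 higher, 2 lower) were the same with equal array medians, a second quantile normalization, only probe sets above the negative controls (35 tested) and an intensity trend with a robust fit, where CYP27B1 passed in place of CYP2A13. The shares of all probe sets that passed there were 6.64%, 6.59%, 11.9% and 12.4%, against 5.97%, 5.97%, 11.4% and 5.97% of the members tested. The counts were 2 higher and 1 lower after cyclic loess, 2 and 4 with array quality weights, 2 and 4 at an adjusted p under 0.1, and 1 and 0 by the study's stated selection. In the same order, 6.85%, 18.5%, 13.2% and 2.31% of all probe sets passed, against 4.48%, 8.96%, 8.96% and 1.49% of the members. In each of these settings the share of members that passed was thus below that of all probe sets. The gap was widest with array quality weights and with the intensity trend and robust fit. With 1 array left out, 1 to 2 were higher and 0 to 2 lower: without any 1 ox-LDL array CYP24A1 alone passed, without vehicle replicate 1 CYP24A1, CYP27B1 and CYP4F11, and without vehicle replicate 2 CYP24A1 and UGT2B7. Without ox-LDL replicate 1, 2 or 3, 1.44%, 1.42% and 1.56% of all probe sets passed, against 1.49% of the members each time. Without vehicle replicate 1, 2 or 3 it was 3.76%, 3.35% and 12.4% of all, against 4.48%, 2.99% and 5.97% of the members. With the replicate number as a block 1 was higher and 0 lower (limma, 12 at an unadjusted p under 0.05), against 550 calls in place of 1451 over all probe sets. Deviations of same-numbered arrays from their group means correlated at -0.01, 0.03 and 0.02. With so few arrays in a group this cannot decide whether the numbers pair the samples, and the labels do not say. The block ended the calls of UGT2B7 (adjusted p = 0.0701), CYP4F11 (0.0765) and CYP2A13 (0.0907), and of the partner genes OSBP (0.0573), OSBPL1A (0.0760), NFE2L2 (0.0787) and FDX1 (0.0742). The cause of these moves was not tested. The count above the negative controls was 17 at the 99th percentile, 9 against the background rows richest in G and C (chosen after seeing the data), and 34 to 36 otherwise.

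Of 495 pairs of named gene and setting, 434 kept their direction and their side of the threshold. The sign turned in 16, for 8 genes of which none passed in either setting: CYP20A1 (-0.018 with array weights), CYP2R1 (-0.16 with array weights), CYP7A1 (0.018 after cyclic loess), CYP7B1 (0.072 after cyclic loess, 0.041 when quantiles were normalized again), AHR (-0.0060 after cyclic loess) and the rest with 1 array left out. Over the latter, CYP1A2 ran from -0.25 to 0.014, CYP20A1 from -0.11 to 0.49, CYP2R1 from -0.070 to 0.22, CYP46A1 from -0.089 to 0.33, CYP7A1 from -0.14 to 0.029, CYP7B1 from -0.086 to 0.025 and CYP8B1 from -0.061 to 0.094.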

Other observations

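Short motifs were counted on both strands of the 250 bases before the RefSeq start, 1 sequence a symbol, as a description with no test; the sequences of these genes are also among all those counted. The letters TATAAA, the core of a TATA box, were in 18 of 46 (39.1%), against 11.1% of all 27305 sequences. AGGTCA, the hexamer bound by many nuclear receptors, was in 13 of 46 (28.3%), against 12.1%; the 13 include CYP3A4, CYP2B6, CYP19A1 and CYP4V2. GCGTG, the core of AHR elements, was in 9 of 46 (19.6%), against 31.9%, CYP1A1 and SULT2B1 among the 9. GTTAAT was in 3 of 46 (6.52%), against 6.22%, TGACTCA in 0 of 46, against 4.16%, and a vitamin D response element in 0 of 46 and in 1 of all. That element was sought as 1 long fixed pattern, so a count of 0 says little. CYP24A1 and CYP27B1 had no sequence here and were not searched. None of the motifs other than TATAAA was in the CYP2A13 or CYP2A6 sequence, and CYP2A7 also held GCGTG. Close copies such as UGT2B10 and UGT2B11, identical at 229 of 250 bases, are not separate evidence, and a match is a description of letters.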
